A study of Rattus norvegicus with 9 samples.

Results

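The amino acid and endoplasmic reticulum (ER) stress response was followed through 10 genes on 9 rat expression arrays. The genes were Asns, Ddit3, Atf3, Atf4, Atf5, Trib3, Hspa5, Xbp1, Herpud1 and Chac1, and all 10 had at least 1 probe set annotated with that symbol alone, 12 probe sets in all. They are 10 of the 10411 genes with such a probe set. For a gene with several, the brightest over the 9 arrays was used. MesPC denotes primary cultures of rat ventral midbrain cells after 9 days in vitro (6 arrays). MesE11 denotes the ventral midbrain itself at embryonic day 11 (3 arrays). No genotype, strain or drug is named for either. Embryos of 4 pregnant rats were mixed into 3 groups before dissection, so an array stands for a pool of animals and not for 1 animal. Cells were plated in duplicate and the labels speak of 3 independent culture samples, so some of the 6 culture arrays may not be independent of each other. The p-values given here cover no more than the spread among these 9 arrays. The genes were chosen by earlier results of these arrays, both the difference between culture and tissue and the difference between the sets of culture arrays. Their values are therefore a description, with no test, and support nothing.

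Cells that run short of an amino acid, or whose ER fills with unfolded protein, slow translation by phosphorylating the initiation factor eIF2. The kinase GCN2 (Eif2ak4) senses uncharged tRNA, and PERK (Eif2ak3) senses the ER lumen. Translation of the transcription factor ATF4 then goes up, and ATF4 turns on genes of amino acid synthesis, amino acid uptake and tRNA charging together with Ddit3, Trib3 and Chac1. Separate ER sensors, ATF6 and IRE1, act through cleavage of ATF6 and splicing of Xbp1 mRNA and turn on ER chaperones such as Hspa5. ATF4 acts through the C/EBP-ATF response element (CARE), while ATF6 and XBP1 act through the ER stress response elements ERSE and ERSE-II.

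The windows upstream of 4 members held exact copies of these elements and are shown so that the letters can be read beside the values. Each line gives the 250 bases before the gene start annotated by RefSeq, 5′ to 3′ on the gene's strand, in build GRCr8. Capitals mark the matched element. The Hspa5 window lies at chr3:38452766-38453015 on the plus strand, Xbp1 at chr14:84604373-84604622 on the plus strand, Herpud1 at chr19:10614708-10614957 on the minus strand and Chac1 at chr3:126795881-126796130 on the plus strand.
Hspa5: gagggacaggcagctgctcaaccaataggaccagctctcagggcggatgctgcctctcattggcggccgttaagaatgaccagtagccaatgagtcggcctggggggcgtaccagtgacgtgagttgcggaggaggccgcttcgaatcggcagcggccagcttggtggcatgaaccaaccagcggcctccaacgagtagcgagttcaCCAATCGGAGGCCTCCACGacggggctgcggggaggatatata
Xbp1: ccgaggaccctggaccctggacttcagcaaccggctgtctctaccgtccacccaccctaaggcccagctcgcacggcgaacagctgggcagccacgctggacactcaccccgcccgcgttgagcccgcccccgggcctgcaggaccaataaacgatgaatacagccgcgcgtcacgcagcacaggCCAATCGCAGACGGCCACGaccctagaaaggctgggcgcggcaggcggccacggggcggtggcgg
Herpud1: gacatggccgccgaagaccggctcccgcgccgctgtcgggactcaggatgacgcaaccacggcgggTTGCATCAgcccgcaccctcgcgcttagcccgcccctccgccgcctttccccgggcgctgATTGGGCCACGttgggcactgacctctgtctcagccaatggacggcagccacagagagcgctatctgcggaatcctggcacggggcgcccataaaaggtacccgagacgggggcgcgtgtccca
Chac1: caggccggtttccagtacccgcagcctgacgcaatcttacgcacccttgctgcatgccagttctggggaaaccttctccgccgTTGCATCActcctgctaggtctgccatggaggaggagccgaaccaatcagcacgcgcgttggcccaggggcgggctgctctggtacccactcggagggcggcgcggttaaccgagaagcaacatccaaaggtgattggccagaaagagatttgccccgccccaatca

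Both strands were searched for each motif. ERSE (CCAAT, any 9 bases, then CCACG) stood in Hspa5 from base -43 to -25 and in Xbp1 from -65 to -47, counted from the gene start. It occurs in 22 of 33469 such windows, or 0.0657%, and in 0.19% of the 9498 windows of genes measured here. ERSE-II (ATTGG, any 1 base, then CCACG) stood in Herpud1 from -124 to -114 and occurs in 0.0418% of windows. The CARE core TTGCATCA stood in Herpud1 from -184 to -177 and in Chac1 from -167 to -160, and occurs in 0.693% of windows. A looser form, TGATGNAA, which covers the CARE core read on the other strand, was also found in Trib3 (3.4% of windows). The cyclic AMP element TGACGTCA was found in no member (1.59%). In windows of measured genes the shares were 0.0526% for ERSE-II, 0.632% for the CARE core, 1.97% for TGATGNAA and 2.54% for TGACGTCA. RefSeq windows matched 9 of the 10 members, all but Atf3. A match describes the letters and is not a shown binding site.

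**Figure D1:**
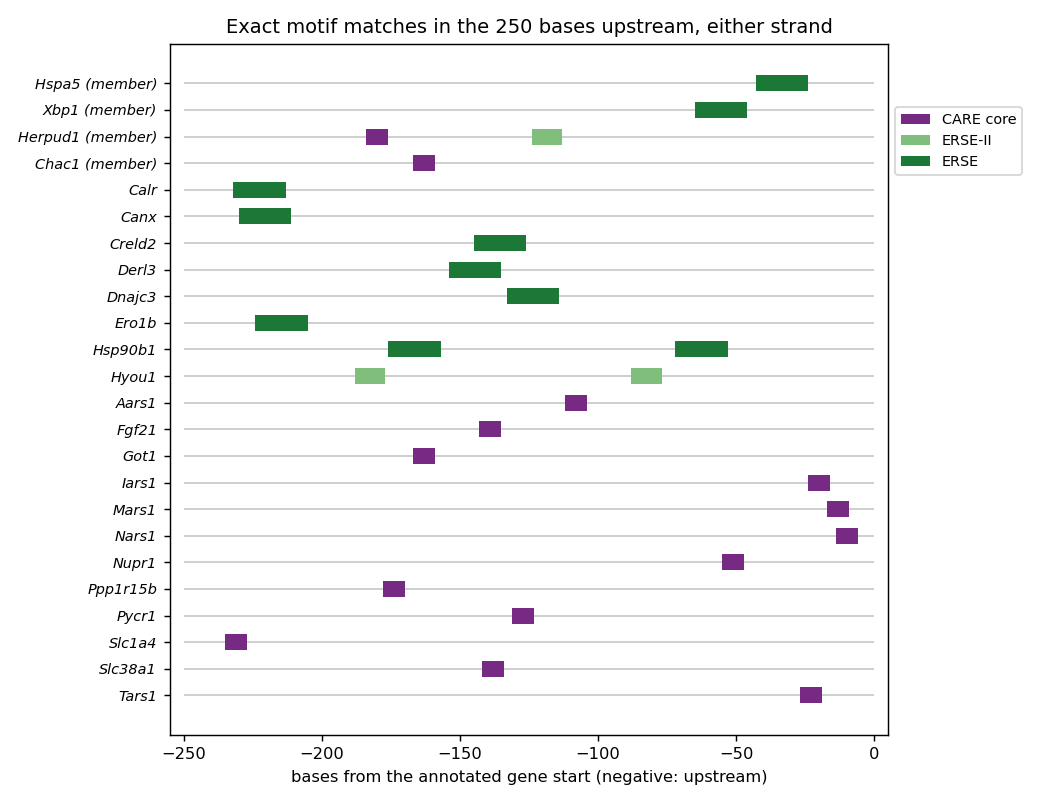
Exact matches to ERSE, ERSE-II and the CARE core in the 250 bases upstream of annotated gene starts, for the members and for the pathway genes that hold a match. The x axis gives bases from the gene start; Hyou1 has 2 annotated starts, drawn on 1 line.

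Asns read higher in culture. It encodes asparagine synthetase, which makes asparagine from aspartate, and was the member with the largest difference. The gene read 9.88, 9.83 and 9.91 on MesPC 1 to 3 and 9.83, 9.80 and 9.61 on MesPC 4 to 6, against 8.32, 8.55 and 8.54 on MesE11 (log2 intensity, as for all levels here). All 6 culture arrays thus lay above all 3 tissue arrays, and the culture sets overlapped. The means were 9.81 ± 0.11 in MesPC (SD, n = 6) and 8.47 ± 0.13 in MesE11 (SD, n = 3), a log2 difference of 1.34 ± 0.08 (SE of the fit, as for all differences here), or 2.54-fold.

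The transcription factors Atf4 and Atf5, relatives of the basic leucine zipper family, also read higher in culture. Atf4 read 11.73, 11.72 and 11.76 on MesPC 1 to 3 and 11.89, 11.94 and 11.82 on MesPC 4 to 6, against 11.56, 11.65 and 11.45 on MesE11. The log2 difference was 0.26 ± 0.07, or 1.20-fold, and no culture array overlapped tissue. ATF4 is controlled chiefly at translation, which arrays of mRNA do not measure. Atf5, whose translation is controlled in the same manner, read 9.65, 10.11 and 9.98 on MesPC 1 to 3 and 10.12, 10.12 and 9.77 on MesPC 4 to 6, against 9.06, 9.31 and 8.96 on MesE11. Its log2 difference was 0.85 ± 0.12, or 1.81-fold, with no overlap between culture and tissue.

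The ATF4 targets linked to prolonged stress, Ddit3 and Chac1, read above tissue on MesPC 4 to 6 but not on MesPC 1 to 3. Ddit3, which encodes the pro-apoptotic factor CHOP, read 7.81, 7.72 and 7.77 on MesPC 1 to 3 and 8.24, 8.15 and 7.91 on MesPC 4 to 6, against 7.78, 7.85 and 7.84 on MesE11. Arrays 1 to 3 lay around the tissue level and arrays 4 to 6 above it, and the difference over all 6 was 0.11 ± 0.12. Chac1 encodes an enzyme that breaks down glutathione. It read 9.26, 9.31 and 9.20 on MesPC 1 to 3 and 9.63, 9.79 and 9.67 on MesPC 4 to 6, against 9.40, 9.48 and 9.42 on MesE11. The culture sets lay on opposite sides of tissue, by -0.18 for arrays 1 to 3 and 0.26 for arrays 4 to 6, so that the overall difference was 0.04 ± 0.13. The overall means of Ddit3 and Chac1 therefore describe neither set of culture arrays.

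Trib3 and Atf3 showed little difference. Trib3 encodes a pseudokinase that binds AKT and dampens ATF4 and CHOP activity; its brightest probe set read 8.05 to 8.26 in MesPC and 8.12 to 8.23 in MesE11, a difference of -0.05 ± 0.06. The suffix of that probe set marks probes shared with other transcripts. Its further probe sets differed by 0.02 ± 0.08 and -0.10 ± 0.05, and both lay within 4.80 to 6.68, the span of the 27 bacterial control probe sets. Atf3, an immediate stress-induced repressor, read 6.07 to 6.29 in MesPC and 6.25 to 6.40 in MesE11, a difference of -0.12 ± 0.07, and all 9 values lay in that same range. Atf3 was thus not measurable above background here, and neither a change nor its absence can be read from it.

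Of the ER members, the chaperone and the degradation factor read higher in culture and Xbp1 did not. Hspa5 encodes BiP, the main Hsp70 chaperone of the ER lumen. It read 12.18, 12.05 and 12.03 on MesPC 1 to 3 and 11.79, 11.90 and 11.70 on MesPC 4 to 6, against 11.66, 11.71 and 11.39 on MesE11. The groups overlapped at 1 array, MesPC replicate 6, and the difference was 0.35 ± 0.11, or 1.28-fold. Herpud1 encodes an ER membrane protein of the machinery that removes misfolded proteins. It read 9.46, 9.30 and 9.42 on MesPC 1 to 3 and 9.27, 9.37 and 9.08 on MesPC 4 to 6, against 8.86, 8.91 and 8.71 on MesE11. No culture array overlapped tissue, and the difference was 0.49 ± 0.09, or 1.41-fold. Xbp1, the factor made active by splicing of its mRNA, read 10.73 to 10.86 in MesPC and 10.82 to 10.95 in MesE11, a difference of -0.08 ± 0.05. These values do not report splicing.

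**Figure D2:**
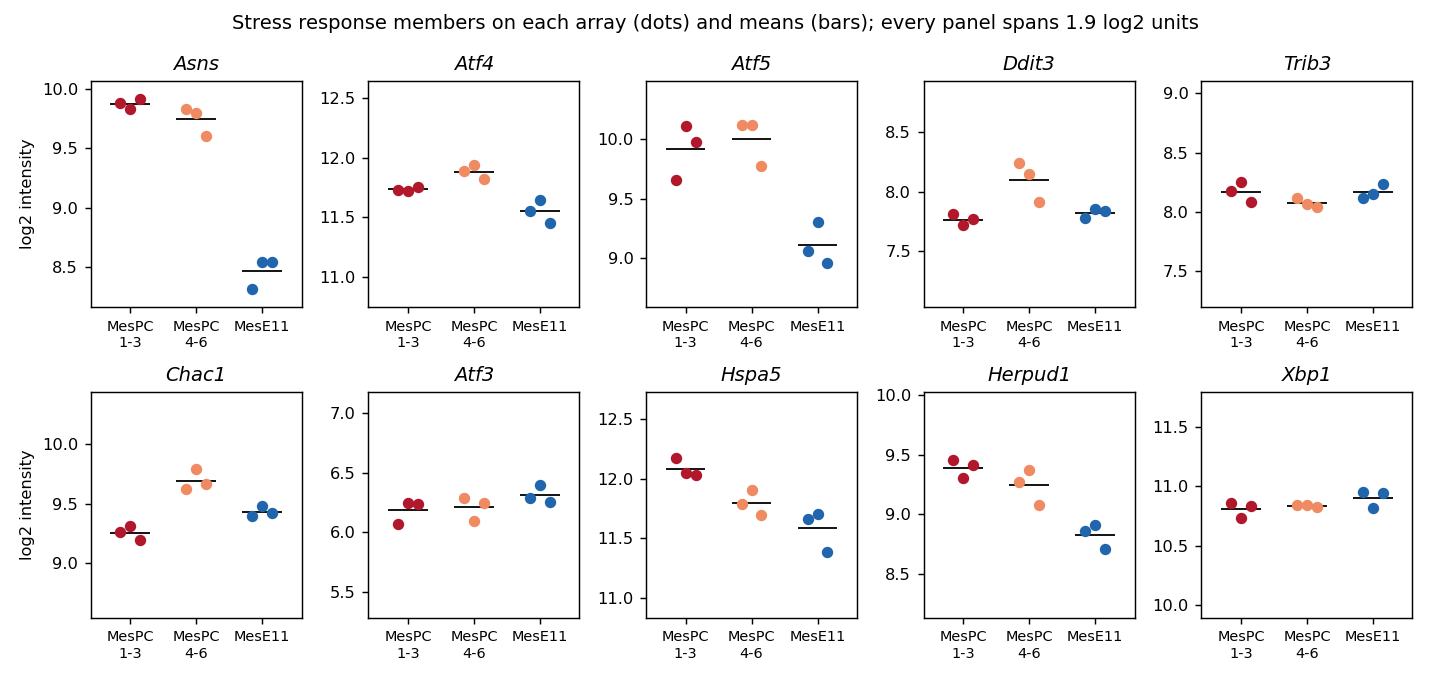
Log2 intensity of the 10 members on MesPC arrays 1 to 3, MesPC arrays 4 to 6 and MesE11 arrays. Dots are arrays and bars are means of 3 arrays. Asns, Atf4, Atf5 and Herpud1 lie above tissue on every culture array, while Ddit3 and Chac1 part the culture sets.

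In limma's fit over all 15866 probe sets, 5 of the 10 members were higher at an adjusted p under 0.05 (Asns, Atf4, Atf5, Hspa5 and Herpud1) and 0 lower. Over all 10411 genes 21.9% were higher and 22.7% lower. For 4 members all 6 culture values lay above tissue, as for 21.1% of all genes, and for 0 members below, as for 23.3%. The members' median difference was 0.18, against -0.06 over all genes. Nothing is read from these counts, as the contrast chose the members. With a random block for the tissue arrays and the 2 sets of culture arrays, 3 members kept their calls, where 13.2% of genes were higher. They were Asns, Atf5 and Herpud1. Without MesE11 replicate 3 the same 3 kept theirs, where 2484 of 15866 probe sets were higher. With MesPC 4 to 6 alone 6 were higher and 0 lower, where 22.9% and 27.2% of genes were. Ddit3 and Chac1 were among these 6 and Hspa5 was not. With MesPC 1 to 3 alone 5 were higher and 1, Chac1, lower, where 25.7% and 27% of genes were. Nothing is read from the calls in these fits either, as the members were chosen by the same differences. The tissue array MesE11 replicate 3 had the lowest value of the 9 for Atf4, Atf5, Hspa5 and Herpud1.

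**Figure D3:**
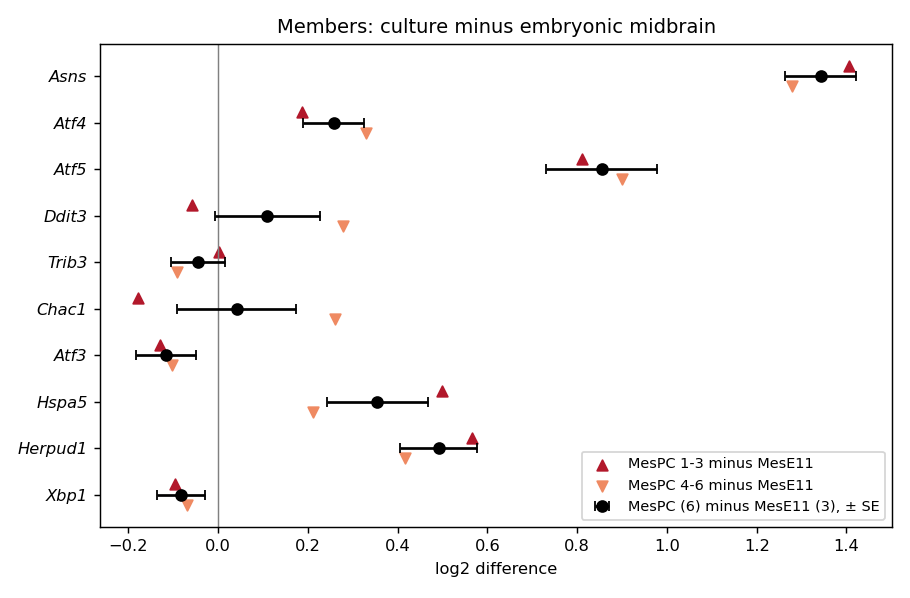
Log2 differences from MesE11 for each member. Black dots give MesPC minus MesE11 with the standard error of the fit (6 and 3 arrays), and triangles give the same for MesPC arrays 1 to 3 or 4 to 6 alone. All 3 estimates share the tissue arrays; Asns is at 1.34 and Chac1 at 0.04.

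The 6 culture arrays formed sets numbered 1 to 3 and 4 to 6, and the labels name nothing that parts them. Across probe sets, which are not replicates, Pearson's r was at least 0.997 within a set and 0.982 to 0.987 between the sets. For 4 of 10 members the sets did not overlap, as for 48.4% of all genes. Hspa5 was higher on arrays 1 to 3, by 0.29, or 1.22-fold. Ddit3 was lower on arrays 1 to 3 by 0.34, Chac1 by 0.44 and Atf4 by 0.14, or 1.26-fold, 1.36-fold and 1.10-fold. These 4 directions were the same after quantile normalization and after centring on the median or on ribosomal protein probe sets. The last moved the median of all probe sets between the sets from 0.04 to -0.09, and the 4 differences under it were 0.16, -0.46, -0.57 and -0.27. The split follows array numbers and was not tested, and no cause is named for it.

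Markers of cell types differed between culture and tissue, and some also between the culture sets. Of 10 neuronal markers measured, 5 were lower in culture and 0 higher (Tubb3, Map2, Gap43, Dcx and Elavl4 did not pass). Their summed intensity after antilog was 22413 to 25601 on MesPC 1 to 3 and 51374 to 53475 on MesPC 4 to 6, against 65686 to 70909 on MesE11, and all 10 parted the culture sets. Of 10 fibroblast and smooth muscle markers, 9 were higher (all but Acta2), with sums of 27163 to 30520 on MesPC 1 to 3 and 26680 to 28799 on MesPC 4 to 6, against 3006 to 3483 on MesE11, where Lum, alone of the 10, lay in the bacterial control range. Of 9 astrocyte markers 7 were higher (sums of 16728 to 21643 in MesPC and 8749 to 11279 in MesE11). Gfap (0.07 ± 0.08) and Slc1a2 (0.09 ± 0.06) did not pass. The brightest Aqp4 probe set lay in the bacterial control range in tissue, while another read 7.19 in tissue and differed by -0.42 ± 0.14. A further Slc1a3 probe set read 8.45 in tissue and differed by -0.74 ± 0.08, while another differed by 1.04 ± 0.23. Of 6 erythroid markers, 6 were lower (sums of 943 to 1215 in MesPC and 23260 to 28089 in MesE11). Of 6 dopaminergic markers 6 were lower, and 4 of these parted the culture sets (sums of 1262 to 1463 on MesPC 1 to 3 and 2472 to 2696 on MesPC 4 to 6, against 6858 to 7414 on MesE11). Of 4 endothelial markers 3 were lower (sums of 348 to 423 in MesPC and 1361 to 1598 in MesE11), with the mean of Pecam1 in the bacterial control range in both groups. Of 8 microglia and macrophage markers 5 were lower (sums of 1459 to 1630 in MesPC and 1977 to 2067 in MesE11), with that of Ptprc in the same range in both. All 5 cell cycle genes were higher and parted the sets, with sums of 10814 to 11897 on MesPC 1 to 3 and 6803 to 7842 on MesPC 4 to 6, against 3928 to 4627 on MesE11. In bulk samples fewer cells of a type and less RNA per cell cannot be told apart. The difference between 3′ and 5′ control probe sets for Gapdh, a sign of RNA quality, was 0.558 to 0.610 on MesPC 1 to 3 and 0.573 to 0.729 on MesPC 4 to 6, against 0.705 to 0.775 on MesE11. For actin it was 0.350 to 0.490 on MesPC 1 to 3 and 0.536 to 0.669 on MesPC 4 to 6, which did not overlap, against 0.515 to 0.798 on MesE11. The part of these markers and of RNA quality in the members' differences was not tested.

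Beyond the members, 24 genes of amino acid transport and synthesis, 20 cytosolic aminoacyl-tRNA synthetases, 28 genes of ER folding and degradation and 28 sensors and other factors were listed. Of these 100 genes, 87 were measured. Calls here are limma's adjusted p under 0.05 over all probe sets, with 21.9% of genes higher and 22.7% lower as background. The lists were drawn up from known roles, with some results of these arrays already seen.

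Of 19 amino acid genes measured 6 rose and 4 fell, with a median difference of 0.21. Psat1 and Phgdh encode 2 enzymes of the phosphorylated pathway of serine synthesis. Psat1 read 12.97, 12.95 and 12.92 on MesPC 1 to 3 and 12.56 on each of MesPC 4 to 6, against 11.22, 11.27 and 10.85 on MesE11, a rise of 1.64 ± 0.14 (3.12-fold, adjusted p = 1.29e-05). Phgdh rose by 1.53 ± 0.21 (2.88-fold, adjusted p = 0.000369). Psph, for another enzyme of that pathway and named for that reason, rose by only 0.22 ± 0.07 (1.16-fold, adjusted p = 0.0245).

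Slc3a2 and Slc7a5 encode the heavy and light chains of the transporter that brings in leucine and other large neutral amino acids. Slc3a2 averaged 11.99 ± 0.12 in MesPC and 11.11 ± 0.06 in MesE11 (SD, n = 6 and 3), a rise of 0.88 ± 0.08, and Slc7a5 rose by 0.79 ± 0.09, or 1.72-fold. Other genes of the list went down. Got1, the cytosolic aspartate aminotransferase, changed by -1.28 ± 0.22 (adjusted p = 0.00143), with 8.62 to 8.92 on MesPC 1 to 3 and 9.47 to 9.64 on MesPC 4 to 6, against 10.38 to 10.53 on MesE11. Slc38a2, a glutamine and alanine carrier known as an ATF4 target, changed by -0.62 ± 0.14 (adjusted p = 0.00611). With the random block 4 of the list were higher and 4 lower, where 13.2% and 9.11% of genes were. With MesPC 1 to 3 alone 11 were higher and 5 lower, where 25.7% and 27% of genes were, and with MesPC 4 to 6 alone 7 and 4, where 22.9% and 27.2% were.

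Of 19 tRNA synthetases measured, 6 rose and 1 fell, with a median of 0.08. Nars1, which charges the asparagine tRNA, rose by 0.53 ± 0.07 (adjusted p = 0.000306), with 10.91 to 11.13 in MesPC and 10.37 to 10.61 in MesE11. Eprs1, for glutamate and proline, rose by 0.48 ± 0.06 and Lars1, for leucine, by 0.29 ± 0.07, while Farsb, a subunit of the phenylalanine enzyme, fell by 0.26 ± 0.07. The differences were small, from -0.26 to 0.53 over the list. With MesPC 1 to 3 alone 5 were higher and 4 lower, where 25.7% and 27% of genes were. With MesPC 4 to 6 alone 5 and 1 were, where 22.9% and 27.2% of genes were. After quantile normalization 4 and 2 were, where 3064 and 3378 of 15866 probe sets were. With the random block 2 were higher and 0 lower, where 13.2% and 9.11% of genes were. Lars1 (adjusted p = 0.121) and Farsb (adjusted p = 0.121) lost their calls in that fit. Without MesE11 replicate 3, 3 were higher and 1 lower, where 2484 and 2241 of 15866 probe sets were. Farsb also lost its call without MesE11 replicate 2 (adjusted p = 0.0668).

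Of 27 ER folding and degradation genes measured 16 rose, 0 fell and 11 did not pass, with a median of 0.27. With MesPC 1 to 3 alone 16 were higher and 1 lower, where 25.7% and 27% of genes were. With MesPC 4 to 6 alone 15 and 1 were, where 22.9% and 27.2% of genes were. Edem1, a lectin that sends misfolded glycoproteins to degradation, rose most, by 1.14 ± 0.12 (2.20-fold, adjusted p = 6.64e-05). It read 8.71, 8.64 and 8.48 on MesPC 1 to 3 and 8.30, 8.30 and 8.21 on MesPC 4 to 6, against 7.42, 7.36 and 7.13 on MesE11. P4hb, the disulfide isomerase that is also a subunit of collagen prolyl hydroxylase, rose by 0.59 ± 0.10, and Ppib, a cyclophilin that acts on collagen, by 0.47 ± 0.07. Selenos, a partner of the ER retrotranslocation machinery, rose by 0.48 ± 0.08.

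The lumenal chaperones Hsp90b1 (GRP94) and Calr (calreticulin) rose by 0.41 ± 0.07 and 0.47 ± 0.12. Calr read 12.50 to 12.52 on MesPC 1 to 3 and 12.12 to 12.26 on MesPC 4 to 6, against 11.69 to 12.02 on MesE11. Like Hspa5, 11 of the 27 were higher on arrays 1 to 3 without overlap (26% of all genes) and 4 lower (22.4%). With the random block 9 rose and 0 fell, where 13.2% and 9.11% of genes did. Without MesE11 replicate 3 the counts were again 9 and 0, where 2484 and 2241 of 15866 probe sets were higher and lower. Calr lost its call in that last fit (adjusted p = 0.0527). The collagen markers Col1a1, Col1a2 and Col3a1 are among the fibroblast markers that rose with this list, and their part in it was not tested.

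Of 22 sensors, eIF2 genes and other factors measured 9 rose and 6 fell, with a median of 0.18. Of the eIF2 kinases, Eif2ak2 passed as higher and Eif2ak3 as lower only at the threshold, while Eif2ak1 and Eif2ak4 did not pass. Eif2ak1, named to complete the kinases, differed by -0.14 ± 0.07 (adjusted p = 0.130), and its further probe set by 0.08 ± 0.07. PKR (Eif2ak2), which senses double-stranded RNA, rose by 0.63 ± 0.06 (1.55-fold, adjusted p = 1.98e-05) with all 6 culture arrays above tissue, where its mean lay in the bacterial control range; it was named after its value was seen. PERK (Eif2ak3) was lower by 0.21 ± 0.08 at the threshold (adjusted p = 0.0499), and 12 of its alternative fits, listed with the processing, did not pass. GCN2 (Eif2ak4) differed by 0.22 ± 0.08 (adjusted p = 0.0506), the eIF2 subunit Eif2s1 by 0.11 ± 0.08 (adjusted p = 0.271), and the eIF2 phosphatase subunit Ppp1r15a by 0.32 ± 0.13 (adjusted p = 0.0715). Ppp1r15a read 8.98 to 9.28 on MesPC 1 to 3 and 8.78 to 8.82 on MesPC 4 to 6, against 8.40 to 8.77 on MesE11. It passed with MesPC 1 to 3 alone (0.50, adjusted p = 0.00447). Among the alternative fits of Eif2ak4, Eif2s1 and Ppp1r15a, 10 passed, that fit included. The lack of a call in the main fit was therefore not stable across settings for all of these genes. The phosphorylation of eIF2 is not measured by these arrays.

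Several factors that act beside ATF4 rose. Nfe2l2 (NRF2), the regulator of antioxidant genes and a PERK substrate, rose by 2.40 ± 0.13 (5.27-fold, adjusted p = 7.43e-07). It read 9.75, 9.73 and 9.65 on MesPC 1 to 3 and 9.30 on each of MesPC 4 to 6, against 7.21, 7.13 and 6.97 on MesE11. The deposited values on arrays 4 to 6 were identical, as for 53 of 15866 probe sets, and such ties narrow the spread. Cebpb, a C/EBP partner of ATF4, rose by 1.24 ± 0.09 (2.37-fold), and its tissue values of 6.11 to 6.36 lay in the range of the bacterial controls. Gadd45a, a growth arrest gene, rose by 1.01 ± 0.08.

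The proteases that cleave ATF6 differed in direction. Mbtps1 (site-1 protease) rose by 1.02 ± 0.12, while Mbtps2 (site-2 protease) changed by -0.67 ± 0.11 (adjusted p = 0.00127), with 9.23 to 9.71 in MesPC and 10.02 to 10.24 in MesE11. Ddit4, a stress-induced inhibitor of mTORC1, fell by 0.26 ± 0.08 (adjusted p = 0.0237), but did not pass with the random block (adjusted p = 0.213) or without MesE11 replicate 2 (adjusted p = 0.0990). With the random block 7 of the list rose and 1 fell, where 13.2% and 9.11% of genes did.

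**Figure D4:**
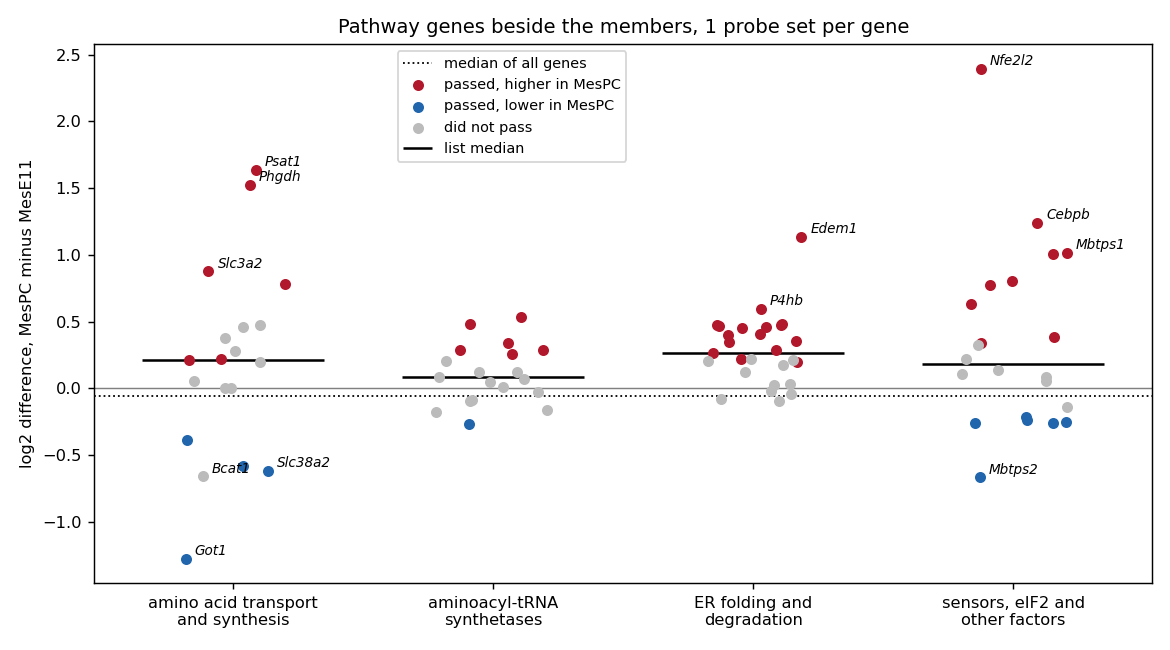
Log2 difference, MesPC minus MesE11, for the 87 measured pathway genes in 4 lists. Each dot is a gene (red and blue passed limma's test, grey did not), the solid bar is the list median and the dotted line the median of all genes at -0.06. ER folding and degradation genes that passed are all higher in MesPC, while amino acid genes lie on both sides.

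The calls were also counted by the elements shown above, as a description without a test. In the main fit 21.9% of all genes were higher and 22.7% lower. Of the ER folding genes with a RefSeq window, 7 measured ones held ERSE or ERSE-II (Hsp90b1, Calr, Canx, Hyou1, Dnajc3, Creld2 and Ero1b), and 6 of these 7 rose, all but Creld2, with a median of 0.45. Of the 14 without either element 7 rose, with a median of 0.22. The members were left out of these counts. Of those with ERSE or ERSE-II, Hspa5 and Herpud1 were called higher and Xbp1 was not called (-0.08 ± 0.05). Of those with the CARE core, Herpud1 was called and Chac1 was not (0.04 ± 0.13). The CARE core stood in 5 measured synthetases (Aars1, Iars1, Mars1, Nars1 and Tars1), of which 3 rose and 0 fell with a median of 0.26. Of the 12 without it 3 rose and 1 fell, with a median of 0.03. In the other lists the median was not higher with the core than without it, and all these counts are small. Of 2 amino acid genes with the core 0 rose and 1 fell, with a median of -0.40. Of the 14 without it 5 rose and 3 fell, with a median of 0.25. Of 3 sensors and factors with the core 1 rose and 1 fell, with a median of 0.14. Of the 18 without it 7 rose and 5 fell, with a median of 0.17. Over all 4 lists 10 measured genes held the CARE core, and 4 rose and 2 fell. Beside the synthetases these were Slc38a1, Got1, Ppp1r15b, Nupr1 and Fgf21. Got1, with the core from base -167 to -160, changed by -1.28 ± 0.22 and Fgf21 by -0.26 ± 0.07. Nupr1, a stress-induced chromatin factor with the core from -55 to -48, rose by 0.81 ± 0.08. Slc38a1 (0.48 ± 0.20) and Ppp1r15b (0.14 ± 0.09) did not pass. Asns held none of these elements in its window. Apart from Asns, genes in this paragraph were named for their motif, and their values were already known.

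The genes with the profile most like that of a member were sought among 10347 others, by the root mean square difference over the 9 arrays after each gene's own mean was subtracted. For Asns these were Pld1 (0.07 log2 units), Mccc2 (0.08) and Cfap77 (0.08), where the SD of Asns itself over the 9 arrays was 0.68. For Ddit3 they were Tefm (0.04), Ptpn1 (0.04) and Stk11ip (0.05), against its own SD of 0.18. For Hspa5 they were Tmod3 (0.04), Clic1 (0.04) and Bckdha (0.05), against its own SD of 0.24. None of these 9 genes belongs to the members or the 4 lists.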

How the data were processed

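RNA of the 9 samples had been hybridized to Affymetrix rat arrays, 1 array per sample. Per the submitters' processing notes the authors used RMA (version not given in the sources used here), which corrects background, normalizes arrays to each other and summarises probe sets. The deposited values are log2 intensities from 4.69 to 14.78, with array medians of 8.61 to 8.67, so a difference is a shift against the rest of the array. The scanner files were not used here.

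Of 15923 probe sets, 57 controls were left out. Symbols came from the array annotation: 12783 probe sets had 1 symbol, 312 several and 2771 none. Of the 12783, 12748 were found in a RefSeq table of GRCr8, which changed 0 symbols. limma 3.58.1 in R 4.3.3 (lmFit, eBayes) compared MesPC with MesE11, with two-sided p adjusted over 15866 probe sets by Benjamini-Hochberg at 0.05, and was tested on simulated data. Figures used matplotlib 3.10.9. The number of arrays limits precision. The range of 27 bacterial control probe sets served as background.

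The members and lists were chosen with earlier results of these data known. Text names the 10 members and, from each list, up to 4 genes by size of change in the main direction and up to 2 in the other, among those called with all culture values on 1 side of tissue, plus Eif2ak3, Eif2ak4, Eif2s1, Ppp1r15a, Hsp90b1, Calr, Psat1 and Phgdh. Ern1, Atf6, Sesn2 and Slc7a11 were also to be named, but lacked a probe set with a single symbol (not analysed here). The text says where another gene was chosen differently. Alternatives were another normalization, 2 centrings, a filter on the dimmest 40% of probe sets, averaging each gene's probe sets, trended robust moderation, leaving out arrays, either culture set alone, a random block and a replicate block.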

Additional observations from a re-analysis of the deposited data

Results flagged for a closer look

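In 2 of the 36 members and named pathway genes checked, 1 culture array stood apart from the other 5, by a gap to its neighbour above the critical value of Dixon's test for 6 samples. Chance flags about 1 in 20. Xbp1 read 10.73 on MesPC replicate 2, against 10.82 to 10.86 on the other culture arrays. Slc7a5 read 10.97 on MesPC replicate 6, against 11.30 to 11.42 on the others, still above every tissue array.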

How the results depend on the processing

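The count of changed probe sets was 6693, and 3227 with the random block, whose estimated correlation was 0.447. The counts of changed genes were 10 for amino acid genes, 7 for tRNA synthetases, 16 for ER folding genes and 15 for sensors and factors. They were 8, 2, 9 and 8 with the random block. With MesPC 1 to 3 alone amino acid genes came to 16. Leaving out 1 array at a time gave 4725 to 6557 probe sets, 8 to 12 amino acid genes, 4 to 7 synthetases, 9 to 17 ER folding genes and 11 to 15 sensors and factors. All other counts stayed within 1.5 times. No member or named pathway gene that passed changed sign under any setting run; of the members that did not pass, Ddit3, Trib3 and Chac1 took the other sign in some. The call of Eif2ak3 ended in 12 fits: trended robust moderation, centring on ribosomal protein probe sets, the filter on dim probe sets, MesPC 4 to 6 alone, the random block, and without MesE11 replicate 1 or 3 or any 1 of MesPC replicates 1 to 5 (adjusted p from 0.0513 to 0.305). Same-numbered arrays of MesPC 1 to 3 and MesE11 had correlated deviations of 0.08, -0.12 and -0.11, so the numbers were not taken as pairs; with them as a replicate block 7521 probe sets passed, and 15, 7, 17 and 17 genes of the 4 lists. Under quantile normalization Atf3 differed by -0.002. Hspa5 lost its call under quantile normalization, the random block, MesPC 4 to 6 alone, and without MesE11 replicate 1 or 3 or MesPC replicate 3; Atf4 lost its call with ribosomal centring, both blocks and without MesE11 replicate 3. The lower quartile of the whole array was 6.98 to 7.11 in MesPC and 7.15 to 7.21 in MesE11, so dim probe sets differed in level between the groups.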
